A study of Mus musculus with 9 samples.

Results

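The genes described here are 180 mouse protein-coding genes that still carry the name of a RIKEN cDNA clone. They were chosen by name: a symbol that begins with 1700, 4921, 4930, 4931, 4932 or 4933, prefixes of clones from RIKEN's testis libraries, and ends in Rik. At least 10 counts in 3 or more of the 9 libraries were also required, in any cell type. Of 183 such genes among 21405 protein-coding rows, 180 met the count minimum: 82 with the prefix 1700, 9 with 4921, 56 with 4930, 7 with 4931, 5 with 4932 and 21 with 4933. The prefix gives the tissue of the clone and no stage within it. The choice used no difference between the cell types, but 1700094D03Rik and 4930522L14Rik met the count minimum in the libraries of a single stage only. 1700031F05Rik met it in the ES libraries and RS replicate 1, so it would not have been included without ES.

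The 9 libraries hold RNA of 3 germ cell stages from the testis of wild-type mice, with 3 libraries per stage. Pachytene spermatocytes (PAC) are germ cells in meiotic prophase. Round spermatids (RS) are the haploid cells that meiosis yields, and elongating spermatids (ES) are later haploid cells that reshape into sperm. Ribosomal RNA was removed from total RNA and strand was kept. The series is titled for a lncRNA, TSCL1, and its interaction with PIWIL1, but all 9 libraries are labelled wild type, so the comparisons are between stages. The sources used here do not state strain, age, the method of cell isolation or the number of animals behind a library, and the design text calls the libraries biological replicates.

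Round spermatids are known for strong transcription that later stops as protamines compact the chromatin, and many of their mRNAs are stored for translation during elongation. Genes on the X chromosome are silenced in pachytene spermatocytes and partly active again after meiosis. Many genes that are named only by a testis clone have no described function, so for most of the genes below no role is given.

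Total counts per library lay between 22910156 and 33801617. The marker lists of the germ cell stages followed the labels in part. The 10 markers of elongating spermatids, such as the protamines Prm1 and Prm2, summed to between 2201 and 3052 CPM (counts scaled by library size) in PAC libraries, to between 15692 and 17791 CPM in RS libraries and to between 43866 and 72722 CPM in ES libraries. The 10 round spermatid markers summed to between 831 and 1064 CPM in PAC libraries, to between 3626 and 3809 CPM in RS libraries and to between 7209 and 9834 CPM in ES libraries. Somatic markers were also present: the 12 Sertoli cell markers summed to between 61.5 and 152 CPM in PAC, to between 53.3 and 58.6 CPM in RS and to between 432 and 526 CPM in ES. Most of the RS sum was a single gene, Amhr2, which averaged 47.7 CPM in RS. Each of the other Sertoli cell markers averaged less in RS than in PAC and more in ES than in RS. Cst12, for instance, averaged 7.16 CPM in PAC, 1.81 CPM in RS and 54.2 CPM in ES.

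The 180 genes took 1.31, 1.46 and 1.41% of all counts in the PAC libraries, 2.67, 2.66 and 2.58% in the RS libraries, and 3.15, 2.92 and 2.91% in the ES libraries. The mean share for PAC was 1.39 ± 0.077%, for RS 2.64 ± 0.054% and for ES 2.99 ± 0.13% (SD, n = 3 each), and the 3 sets of libraries did not overlap. In bulk libraries, fewer cells of a type and less RNA per cell cannot be told apart. The share is of counts and so weighs long transcripts more. On the deposited FPKM scale, which divides by transcript length, the median gene of the set had 23.6 FPKM in PAC libraries, 46.0 FPKM in RS libraries and 27.0 FPKM in ES libraries. The median over the other protein-coding genes tested was 5.17, 4.02 and 3.63 FPKM in the same order of stages.

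The very highest levels were held by a few genes of the set, and most of all in ES. Levels of 100 FPKM or more were held by 32 genes in PAC, 56 in RS and 42 in ES. None of the 180 genes was among the 100 protein-coding rows with the highest mean FPKM in PAC, while 6 were in RS and 12 in ES, although the set makes up 0.84% of the 21405 rows. Among the 500 highest rows were 11 genes of the set in PAC, 34 in RS and 34 in ES. The 10 most abundant genes held 34.7% of the set's summed FPKM in PAC, against 31.3% in RS and 46.6% in ES. In PAC, 1700020D05Rik was the most abundant at 572 ± 60.7 FPKM. In RS it was 1700001F09Rik at 1077 ± 49.6 FPKM, and in ES it was 1700012A03Rik at 2433 ± 323 FPKM (SD, n = 3 each). 1700074P13Rik, also named Tryx5 for its likeness to trypsin-type proteases, was second in both PAC and RS, at 518 ± 61.0 and 864 ± 28.7 FPKM, and had 880 ± 148 FPKM in ES. The gene 1700020D05Rik overlaps Snx32 on the same strand, and 1700001F09Rik has close copies, so reads of both may be shared with other genes.

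From PAC to RS, most of the set rose. Of the 180 genes, 125 were higher in RS than in PAC and 27 were lower, at an adjusted p below 0.05 by edgeR's quasi-likelihood test. Over all 26030 features tested, 38.2% were higher and 34.2% lower in RS against PAC. For the set the shares were 69.4% higher and 15.0% lower, and for the other 14656 protein-coding genes they were 25.8% higher and 47.3% lower. The median log2 fold change was 1.40 over the set, 0.11 over all features and -0.48 over the other protein-coding genes.

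From RS to ES the set went the other way on balance. In ES against RS, 47 genes were higher and 79 lower, where 24.5% of all features were higher and 22.1% lower. The shares were 26.1% higher and 43.9% lower for the set, and 31.9% higher and 21.4% lower for the other protein-coding genes, with median log2 fold changes of -0.35 and 0.19. This split rests in part on the scaling: with total counts as the only scaling, 39 were higher and 102 lower, and on the FPKM scale with a pseudocount of 1 the numbers were 39 and 106. In ES against PAC, 82 genes were higher and 43 lower, with 30.6% of all features higher and 33.7% lower and a median log2 fold change of 0.34 over the set. The 3 comparisons share their libraries in pairs, so they are not independent of each other.

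**Figure D1:**
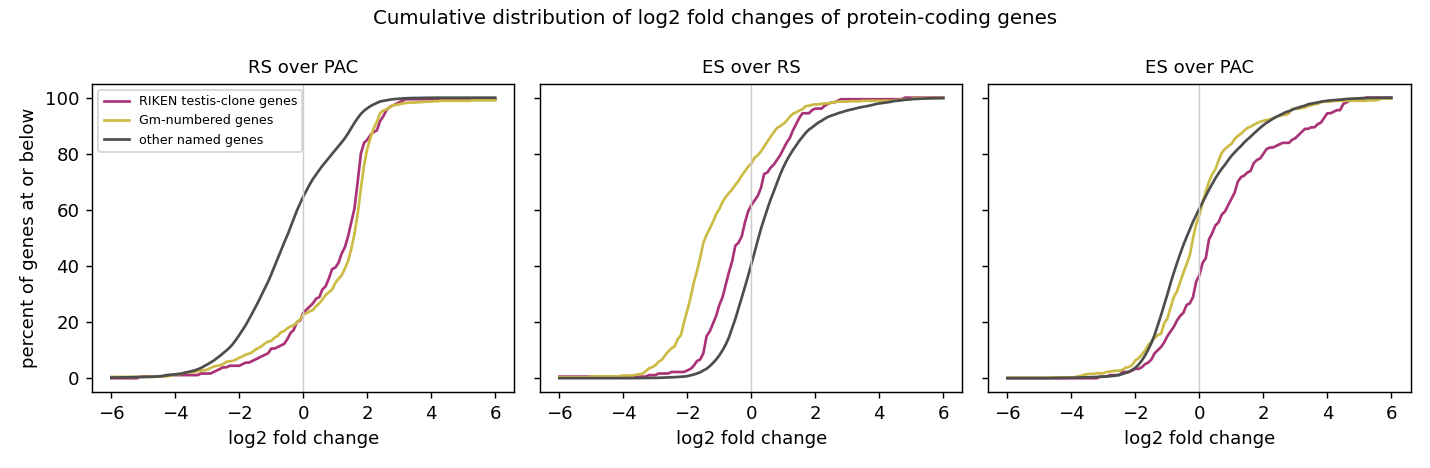
Cumulative distribution of the log2 fold change (horizontal axis) as percent of genes (vertical axis) for the 180 RIKEN testis-clone genes, 630 Gm-numbered protein-coding genes and 13887 other named protein-coding genes, one panel per comparison. In RS over PAC the curve of the RIKEN testis-clone genes lies right of that of the other named genes, with medians of 1.40 and -0.53, and close to the Gm-numbered genes, whose median was 1.58.

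The set was set beside protein-coding genes with other provisional names. Of 139 genes with other RIKEN prefixes, 39 were higher and 66 lower in RS against PAC with a median log2 fold change of -0.52, below 0 where the testis-clone set lay above 0. Of 630 genes with Gm numbers, which are provisional names of predicted mouse genes, 423 were higher and 92 lower, with a median of 1.58. In ES against RS, 47 of the 180 RIKEN testis-clone genes were higher and 79 lower, against 63 higher and 377 lower of the 630 Gm-numbered genes. The medians in ES against RS were -0.35 for the RIKEN testis-clone genes and -1.45 for the Gm-numbered genes. These differences between lists were not tested, since genes of a list are not replicates. Among prefixes, 63 of the 82 genes with 1700 were higher in RS than in PAC and 12 lower, which is 76.8 and 14.6%. Of the 56 with 4930, 38 were higher and 6 lower, 67.9 and 10.7%. Over all features 38.2% were higher and 34.2% lower. The 7 genes with 4931 were split, with 3 higher, 3 lower and a median log2 fold change of -0.26. In ES against RS 26 of the 82 with 1700 were higher and 33 lower, and 9 of the 56 with 4930 were higher and 30 lower. These are 31.7 and 40.2% for 1700 and 16.1 and 53.6% for 4930, where 24.5% of all features were higher and 22.1% lower.

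Each gene was also given a stage of highest level where it was called higher in that cell type against both others. By this rule 23 genes were highest in PAC, 62 in RS and 38 in ES, and 57 had no single highest stage. These are 12.8, 34.4 and 21.1% of the set for PAC, RS and ES. Over all features tested the same rule gave 25.4% for PAC, 13.4% for RS and 13.3% for ES, and over the other protein-coding genes 33.5, 10.4 and 14.6% in the same order. Called lower against both others were 76 genes in PAC, 9 in RS and 25 in ES, with 23.4, 12.8 and 9.42% of all features in that order.

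**Figure D2:**
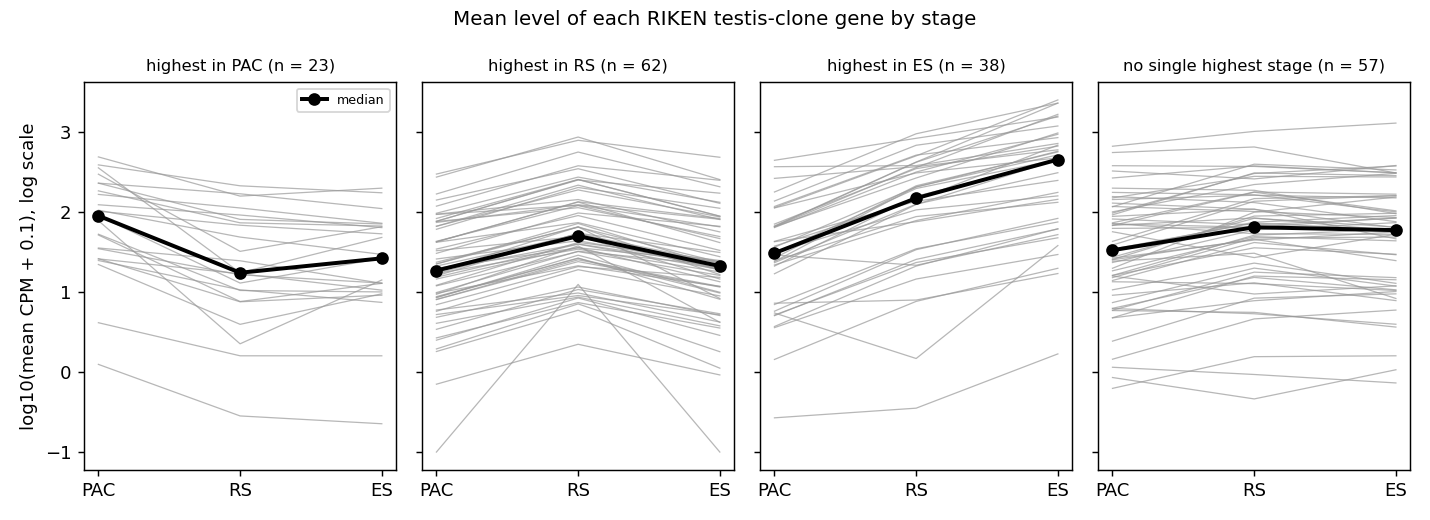
Mean level of each of the 180 genes in PAC, RS and ES, as log10 of the mean CPM of 3 libraries plus 0.1, in panels by stage of highest level (23, 62, 38 and 57 genes). Grey lines are genes and the black line is the median of a panel; the median line peaks in RS in the second panel and climbs through all stages in the third.

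The 62 genes highest in RS mostly had fold changes of like size, with single genes far outside that range. Their log2 fold change in RS against PAC had a median of 1.57 and quartiles of 1.30 and 1.72, and in ES against RS a median of -1.21 with quartiles of -1.46 and -0.91. The whole range in ES against RS reached up to -0.45, and that in RS against PAC down to 0.38. Because these genes were grouped by those same comparisons, the values describe the group and test nothing. The 10 round spermatid markers did not all take this course. Of these, 7 (Acrv1, Catsper3, Catsper4, Spaca1, Izumo1, Spaca4 and Eqtn) were higher in RS than in PAC and lower in ES than in RS, with log2 fold changes between 1.44 and 1.79 in RS against PAC and between -1.67 and -0.97 in ES against RS. Tssk6 and Cabs1 were higher in both steps, with 2.83 and 2.78 in RS against PAC and 2.11 each in ES against RS, and Acr was called in neither. In ES against PAC the 62 genes went both ways, with log2 fold changes between -1.18 and 1.17 and a median of 0.16.

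The most abundant of these was 1700001F09Rik on chromosome 14 (chr14:43342384-43347811, GRCm38.p6). It had 265, 303 and 258 CPM in PAC libraries, 845, 923 and 847 CPM in RS libraries and 264, 274 and 230 CPM in ES libraries. The RS libraries stood above all others and the PAC and ES libraries overlapped. Its log2 fold change was 1.66 ± 0.13 (SE) in RS against PAC, with an adjusted p of 1.1e-06 by edgeR's quasi-likelihood test. The log2 fold change in ES against RS was -1.77 ± 0.13, with an adjusted p of 3.58e-06. 1700001J03Rik on chromosome 5 followed the same course, with 560, 611 and 525 CPM in RS against 166, 200 and 142 CPM in PAC, and 231, 213 and 181 CPM in ES. Its RS libraries again did not overlap with any other library. Both genes have copies: 12 other genes matched the transcript of 1700001F09Rik at 90% identity or more over at least 50% of its length, and 2 matched that of 1700001J03Rik.

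Several of the steepest declines from RS to ES were in genes with close copies elsewhere in the genome. 4930555G01Rik had 3.46, 4.57 and 4.26 CPM in ES against 31.2, 38.5 and 43.7 CPM in RS, and 7.18, 11.5 and 9.23 CPM in PAC. No ES library reached the lowest RS library, and the log2 fold change in ES against RS was -3.20 ± 0.22 (SE, adjusted p = 2.81e-06 by edgeR's quasi-likelihood test). Its transcript matched 72 other genes at 90% identity or more, so its counts cannot be assigned to 1 locus with certainty. 4930449I24Rik had 4.70, 7.24 and 12.8 CPM in ES against 62.7, 63.0 and 70.7 CPM in RS and matched 7 other genes at 90% identity or more. In ES the libraries of 4930449I24Rik differed by more than 2-fold among themselves, yet all lay below every RS library. 4930512M02Rik, with 1 such match, fell by 2.52 on the log2 scale in ES against RS, with 1.02 CPM on average in ES. 4930474N05Rik, for which no such match was found, fell by 1.99 on the same scale, with 16.5 CPM on average in ES.

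1700094D03Rik on chromosome 3 was counted in RS only. It had 0 counts in all 3 ES libraries and 0 counts in all 3 PAC libraries, and 7.92, 19.6 and 9.75 CPM in RS. The gene met the count minimum through its RS libraries alone, so its excess in RS is not independent of how the set was chosen. The RS libraries differed from each other by more than 2-fold. With 3 counts per library taken as the floor, the mean RS level was at least 85.2-fold higher than in ES and at least 120-fold higher than in PAC. No other gene of the set with a mean of 5 CPM or more in a stage had 0 counts in all libraries of another stage. The RefSeq span of 1700094D03Rik (chr3:90062808-90068347) overlaps that of another gene of the set, 4933434E20Rik (chr3:90051636-90063341), and in GENCODE the span of 4933434E20Rik runs on to 90068347, the end of 1700094D03Rik. 4933434E20Rik was counted in all libraries, at 65.2, 76.5 and 81.3 CPM in PAC, 128, 121 and 123 CPM in RS and 83.4, 79.9 and 81.2 CPM in ES. Whether reads of 1700094D03Rik were assigned to 4933434E20Rik in PAC and ES was not tested, so the bounds hold for the counts as deposited.

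The 38 genes highest in ES rose in both steps in most cases. Their median log2 fold change was 2.26 in RS against PAC, where 34 of the 38 were called, and 1.28 in ES against RS. In ES against PAC the median was 3.54 and the range ran to 5.11. These values again describe the rule that grouped them. 1700031F05Rik is among the 38 and met the count minimum only with its ES libraries, so its excess in ES is not independent of the choice. The 10 elongating spermatid markers, among them Odf1 of the outer dense fibres of the sperm tail, had log2 fold changes in ES against PAC between 3.47 for Prm3 and 4.92 for Prm2.

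1700012A03Rik (chr6:32050288-32059062) was the steepest, a gene of 3 exons with 390 coding bases. It had 64.2, 79.2 and 58.5 CPM in PAC, 345, 445 and 481 CPM in RS and 2815, 2313 and 1827 CPM in ES. Each stage lay apart from the next in every library. Its log2 fold change was 5.11 ± 0.22 (SE) in ES against PAC, 2.65 ± 0.20 in RS against PAC and 2.45 ± 0.20 in ES against RS (adjusted p = 3.08e-08, 9.37e-07 and 5.41e-06 by edgeR's quasi-likelihood test).

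4930571K23Rik on chromosome 7 had 90.4, 129 and 124 CPM in PAC, 483, 497 and 539 CPM in RS and 2579, 2640 and 2399 CPM in ES, with a log2 fold change of 4.47 ± 0.17 in ES against PAC. Its libraries agreed closely within each stage and did not overlap between stages. 4933411K16Rik, a single-exon gene of 912 coding bases on chromosome 19, had 46.1, 78.6 and 72.1 CPM in PAC, 361, 340 and 383 CPM in RS and 1658, 1587 and 1787 CPM in ES. It overlaps Hoga1, a mitochondrial enzyme gene on the same strand, so reads of both genes may be shared. 1700016H13Rik had 58.3, 82.9 and 57.6 CPM in PAC, 369, 446 and 453 CPM in RS and 2005, 1432 and 1355 CPM in ES. As in several of these genes, ES replicate 1 was the highest of the 3 and all stages stayed apart.

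Spread between ES libraries was wide for some of them. 1700029H14Rik had 3294 CPM in ES replicate 1, against 1821 and 1840 CPM in the other two, and 1700001C19Rik had 1390, 691 and 749 CPM. Both were nevertheless above all RS libraries, which lay between 936 and 991 CPM for 1700029H14Rik and between 307 and 327 CPM for 1700001C19Rik. Over the set, the median coefficient of variation between libraries was 16.3% for PAC, 7.60% for RS and 17.6% for ES. CPM are also divided by a scaling factor per library (TMM), which was 0.758 for ES replicate 1 and 0.924 and 0.923 for replicates 2 and 3. A lower factor raises all CPM of its library. Without ES replicate 1, 45 genes were higher and 82 lower in ES against RS.

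1700015G11Rik, also named Ccdc179, had the shortest coding sequence among the matched genes of the set, at 213 bases. It had 743, 474 and 348 CPM in ES against 164, 223 and 238 CPM in RS, and 22.9, 30.2 and 19.1 CPM in PAC, and the stages did not overlap. Its log2 fold change in RS against PAC, 3.11 ± 0.29, was the largest in the set after that of 1700094D03Rik. 1700019D03Rik, the gene of a small membrane anchor of protein kinase A, had log2 fold changes of 2.31 ± 0.23 in RS against PAC and 0.80 ± 0.22 in ES against RS. The ES against RS call of 1700019D03Rik was lost with total counts (0.44), on the FPKM scale (0.40) and without RS replicate 1 (0.72). 1700020A23Rik, with 393 coding bases in 2 exons, had 4.76 ± 0.28 in ES against PAC and overlaps the predicted gene Gm28372 on the same strand.

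**Figure D3:**
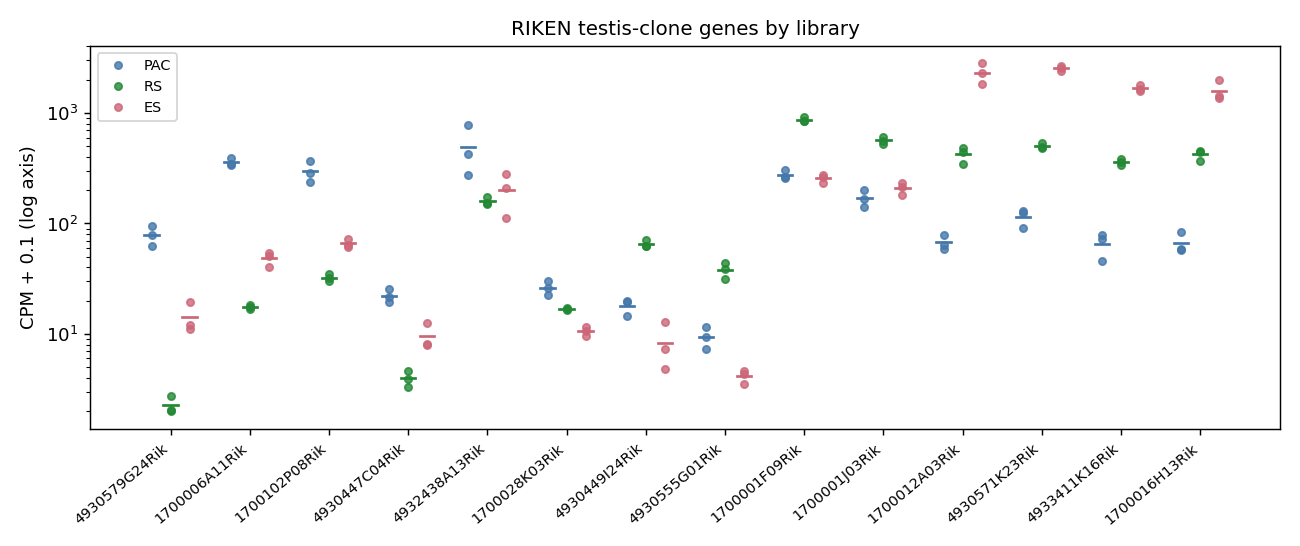
CPM plus 0.1 on a log axis in each library for 14 named genes, with PAC, RS and ES from left to right within a gene; points are libraries and bars are means of 3. The first 6 genes are at their highest in PAC, the next 4 in RS and the last 4 in ES, where the lowest ES library of 1700012A03Rik had 1827 CPM and that of 4930571K23Rik 2399 CPM.

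The 23 genes highest in PAC include genes with a known meiotic role. Their median log2 fold change was -1.43 in RS against PAC and -1.48 in ES against PAC. 4930522L14Rik is among them and met the count minimum through its PAC libraries alone, so its excess in PAC is not independent of the choice. 4930447C04Rik, now named Six6os1, encodes a protein of the synaptonemal complex, the structure that joins paired chromosomes in meiosis. It had 21.4, 25.4 and 19.5 CPM in PAC, 3.83, 4.56 and 3.18 CPM in RS and 8.0, 12.5 and 7.81 CPM in ES, and no library of one stage overlapped with another stage. It fell by 2.52 ± 0.23 on the log2 scale in RS against PAC (SE, adjusted p = 3.24e-06 by edgeR's quasi-likelihood test). The 3 synaptonemal complex genes among the pachytene markers had -0.53 for Sycp1, -2.34 for Sycp2 and -2.20 for Sycp3 in the same comparison.

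1700028K03Rik, known as SPO16 or SCRE and needed for meiotic crossovers in mice, declined in smaller steps. It had 17.2, 16.5 and 16.9 CPM in RS against 29.9, 25.7 and 22.3 CPM in PAC, a log2 fold change of -0.62 ± 0.15 whose call was lost under upper-quartile scaling. In ES it had 9.57, 11.4 and 10.5 CPM, all below the RS libraries, for a log2 fold change of -0.69 ± 0.15 in ES against RS. Another meiotic gene, 4930432K21Rik, known as Brme1 and a partner of the BRCA2 recombination machinery, did not pass the test in RS against PAC, at a log2 fold change of -0.09 ± 0.15. It passed in ES against RS, at -0.97 ± 0.15 with 93.8, 105 and 88.8 CPM in ES against 186, 192 and 186 CPM in RS.

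4932438A13Rik is the largest gene of the set, with 86 exons and 15015 coding bases, and encodes the lipid transfer protein Bltp1, also named Kiaa1109. It had 274, 429 and 772 CPM in PAC, 150, 154 and 174 CPM in RS and 112, 210 and 278 CPM in ES. The PAC libraries ranged widely but all lay above the RS libraries, and the ES libraries overlapped with both. The log2 fold change in RS against PAC was -1.63 ± 0.40 (adjusted p = 0.00491 by edgeR's quasi-likelihood test). On the deposited FPKM scale the call of 4932438A13Rik was lost: it had 29.7 ± 0.131 FPKM in RS against 38.3 ± 17.4 FPKM in PAC (SD, n = 3 each), and a log2 fold change of -0.26 with a pseudocount of 1 (adjusted p = 0.442 by limma).

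The largest falls were in genes with no role given here. 4930579G24Rik (chr3:79629079-79632820), with 333 coding bases, had 1.90, 1.94 and 2.63 CPM in RS against 93.9, 78.6 and 62.6 CPM in PAC. The groups lay far apart, with a log2 fold change of -5.18 ± 0.28 (adjusted p = 1.08e-07). 1700006A11Rik (chr3:124400990-124426039) had 17.4, 16.8 and 18.1 CPM in RS against 395, 343 and 338 CPM in PAC, a log2 fold change of -4.36 ± 0.16 (adjusted p = 6.45e-09 by edgeR's quasi-likelihood test). 1700102P08Rik fell by 3.21 ± 0.18 on the log2 scale, 4930524B15Rik by 2.81 ± 0.16 and 4933412E24Rik by 2.78 ± 0.17.

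These 5 genes were again higher in ES than in RS, though for 4933412E24Rik the call was lost with total counts and on the FPKM scale. 4930579G24Rik had 10.9, 19.5 and 11.9 CPM in ES, above the 1.90, 1.94 and 2.63 CPM of RS, with a log2 fold change of 2.71 ± 0.26. 1700006A11Rik had 40.2, 50.5 and 54.1 CPM in ES against 17.4, 16.8 and 18.1 CPM in RS, and a log2 fold change of 1.47 ± 0.14. In all, 9 genes were lowest in RS: these 5, 4930447C04Rik, 1700017B05Rik, 4931414P19Rik and 4933402E13Rik. 4931414P19Rik, which had at most 1.20 CPM in any library, lost its RS against PAC call under 8 alternatives and its ES against RS call under 2. The 12 pachytene markers summed to between 4227 and 4327 CPM in PAC, to between 2508 and 2690 CPM in RS and to between 2262 and 2635 CPM in ES, and the ES and RS sums overlapped. Of the 12, 6 (Piwil1, Tex101, Mlh3, Dmc1, Mov10l1 and Hormad1) were higher in ES than in RS, with log2 fold changes between 0.43 for Hormad1 and 2.10 for Piwil1. Spo11 and Ccna1 were lower, and Sycp1, Sycp2, Sycp3 and Ldhc were not called. The 8 Leydig cell markers summed to between 92.6 and 126 CPM in PAC, to between 1.86 and 2.19 CPM in RS and to between 18.7 and 24.6 CPM in ES, with Lhcgr at 0 counts in all RS libraries. The 12 Sertoli cell markers had higher sums in ES than in RS, as given above, and Amh and Fshr were at 0 counts in RS. Amhr2, most of the RS sum, was not called in RS against PAC and had a log2 fold change of 1.96 in ES against RS. The other Sertoli cell markers tested were all lower in RS than in PAC, between -3.66 for Clu and -1.98 for Cst12. In ES against RS they were all higher, between 4.56 for Ctsl and 6.05 for Wt1. The part of other cells in the levels of these 9 genes was not tested.

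Some genes with a known role outside meiosis differed little between neighbouring stages, and their calls changed with the setting. 4930402H24Rik, the mouse relative of a dynein assembly factor known from Tetrahymena as Shulin, had 74.6, 81.7 and 90.3 CPM in PAC, 72.2, 67.8 and 68.5 CPM in RS and 79.2, 78.6 and 94.4 CPM in ES. Its stages lay close together, and its log2 fold changes were -0.24 ± 0.13 in RS against PAC and 0.27 ± 0.13 in ES against RS, neither called. The DESeq2 Wald test called 4930402H24Rik in both comparisons, with log2 fold changes of -0.30 in RS against PAC and 0.41 in ES against RS. 1700016K19Rik, known as Liat1, a ligand of the arginyltransferase ATE1, had 0.50 ± 0.22 in RS against PAC (adjusted p = 0.0533 by edgeR's quasi-likelihood test) and -0.29 ± 0.22 in ES against RS. Under 12 alternatives 1700016K19Rik was called higher in RS than in PAC, with log2 fold changes between 0.50 and 0.81, and under 4 it was called lower in ES than in RS. 4933427D14Rik, a centriolar satellite gene known as Kiaa0753, had 0.31 ± 0.18 in RS against PAC, which did not pass, and -0.53 ± 0.18 in ES against RS, which did (adjusted p = 0.0319). The ES against RS call of 4933427D14Rik was lost under 7 alternatives: with DESeq2's Wald test, with DESeq2 size factors, without each RS library in turn and without ES replicate 1 or 2, at adjusted p-values between 0.056 and 0.0827. In RS against PAC it was called under 4 alternatives.

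Others with a role rose in RS. 4931428F04Rik, whose protein is the tubulin detyrosinase MATCAP, had 89.9, 85.2 and 76.7 CPM in RS against 23.1, 32.2 and 26.7 CPM in PAC, with no overlap and a log2 fold change of 1.62 ± 0.15. It had 67.0, 59.5 and 69.5 CPM in ES, and the change from RS did not pass the test (-0.36 ± 0.15, adjusted p = 0.0653 by edgeR's quasi-likelihood test), though it passed under 5 alternatives, total counts and FPKM among them. 4930550C14Rik, whose human counterpart is described as an inhibitor of mitochondrial fission, had 0.61 ± 0.12 in RS against PAC and -1.35 ± 0.12 in ES against RS. 4930415L06Rik, an X-linked regulatory subunit gene of protein phosphatase 4, had 1.31, 2.34 and 1.91 CPM in PAC, 6.57, 6.88 and 7.65 CPM in RS and 1.24, 2.31 and 1.56 CPM in ES. The RS libraries stood above the rest in that gene, with PAC and ES overlapping.

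The set holds 17 genes on the X chromosome, where silencing in meiosis is known. Of these, 15 were higher in RS than in PAC and 1 was lower, and the median log2 fold change was 1.62. Of the 163 autosomal genes of the set 110 were higher and 26 lower, with a median of 1.31. Among the other protein-coding genes tested, 55.7% of 644 on the X and 23.5% of 13829 on autosomes were higher, with medians of 1.08 and -0.54. The medians of X-linked and autosomal genes lay closer together within the set than among the other genes, a difference between lists that was not tested. In ES against RS, 4 of the 17 X-linked genes were higher and 9 lower, which is 23.5 and 52.9%. 1700031F05Rik, among the 4, met the count minimum only with its ES libraries. Over all features the shares were 24.5% higher and 22.1% lower. Over the other protein-coding genes on the X they were 36.8% higher and 29.5% lower.

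1700080O16Rik was higher in RS than in PAC, and its difference between ES and RS depended on the scaling. It had 85.0, 88.5 and 90.9 CPM in RS against 20.7, 27.5 and 25.6 CPM in PAC, with 163, 120 and 115 CPM in ES. Each stage was apart from the next, and its log2 fold changes were 1.84 ± 0.17 in RS against PAC and 0.59 ± 0.16 in ES against RS. The ES against RS call of 1700080O16Rik was lost with total counts (0.24), on the FPKM scale (0.24 with a pseudocount of 1) and without RS replicate 1 (0.55). 4932429P05Rik had 70.9, 76.4 and 69.3 CPM in RS against 20.9, 21.1 and 25.2 CPM in PAC, and returned to 19.9, 22.4 and 20.2 CPM in ES. 1700013H16Rik, a member of the Slx and Xlr family named Slx2, had 58.6, 55.6 and 47.0 CPM in RS against 17.2, 20.6 and 15.9 CPM in PAC. In both genes the RS libraries lay above every other library.

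4933402E13Rik was the exception on the X. It had 9.11, 5.59 and 1.48 CPM in PAC, 1.36, 1.23 and 1.55 CPM in RS and 39.7, 46.3 and 28.6 CPM in ES. The PAC libraries spread widely and the lowest of them lay within the RS range. The log2 fold change in ES against RS, 4.79 ± 0.57 (adjusted p = 0.00013 by edgeR's quasi-likelihood test), was the largest in the set. The Sertoli cell marker Rhox5, also X-linked, averaged 0.611 CPM in PAC, 0.134 CPM in RS and 5.42 CPM in ES, with a log2 fold change of 5.29 in ES against RS. The haemoglobin gene Hbb-bs had 85.3 CPM on average in ES and 1.13 in RS. Their part in the level of 4933402E13Rik was not tested.

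**Figure D4:**
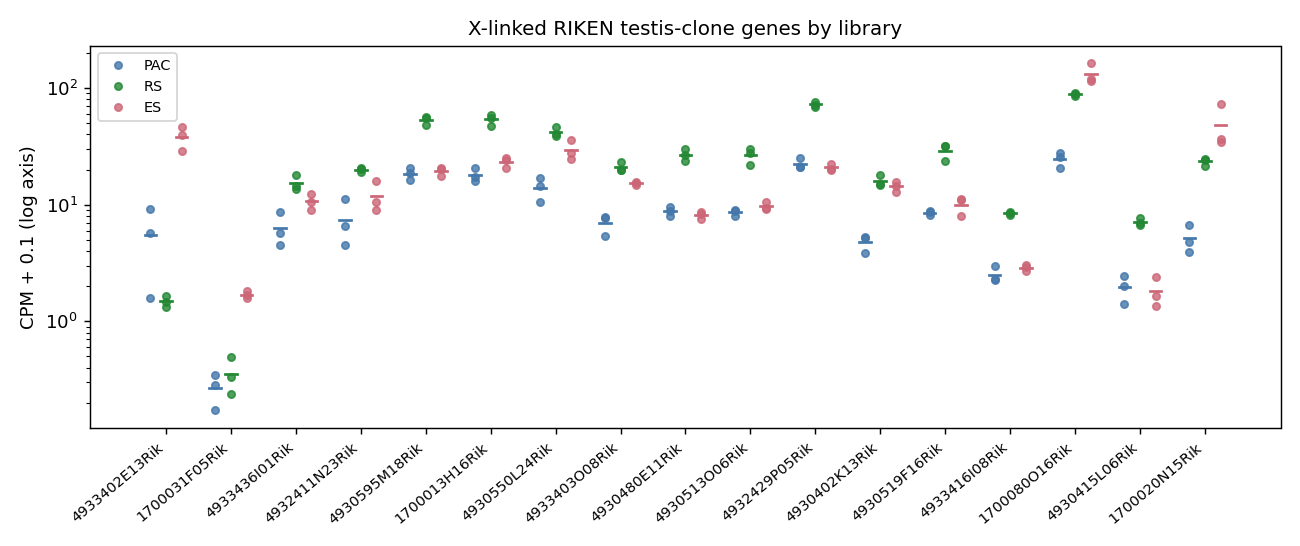
CPM plus 0.1 on a log axis in each library for the 17 X-linked genes of the set, ordered by log2 fold change in RS over PAC from left to right, with PAC, RS and ES in order within a gene; bars are means of 3. The mean lies higher in RS than in PAC in every gene but 4933402E13Rik, and 15 of the 17 were called higher, while 4933402E13Rik at the far left averages 38.2 CPM in ES, against 1.38 CPM in RS.

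The genes of the set were short. Of the 180, 167 matched a gene of GENCODE release M21, and their median coding sequence was 720 bases in 4 exons. The other 14314 protein-coding genes matched had a median of 1410 coding bases in 9 exons. Of the Gm-numbered genes 54.8% were matched, and these were also short, with a median of 696 coding bases in 5 exons. Of those matched, 16.2% had 600 coding bases or less. A coding sequence of 600 bases or less was found in 53 genes of the set, 31.7%, against 12.3% of the other genes. A single exon was found in 12 genes of the set, 7.19%, against 3.16%. Within the set, 15 of the 35 matched genes highest in ES and 21 of the 57 highest in RS had 600 coding bases or less, which was 42.9% for ES and 36.8% for RS. Of the 23 highest in PAC, 9 had 600 coding bases or less, 39.1%, against 11.4% of the other genes of that class.

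Promoters were compared over windows of 300 bases, from 250 before to 50 after a gene's start, taken from RefSeq on GRCm38.p6. For 153 genes of the set there were 185 windows, since some genes have several starts, and windows of 1 gene can overlap. CpG dinucleotides were sparse in them: the ratio of observed to expected CpG had a median of 0.255, against 0.706 in 14945 windows of other protein-coding genes. GC content differed less, with a median of 51.0% against 59.3%. Low CpG was not particular to the set: 613 windows of Gm-numbered genes had a median ratio of 0.181 and a median GC content of 47.0%. A CpG ratio below 0.4 was found in 61.6% of the windows of the set and in 25.6% of the other windows. By stage of highest level, the share of the set's windows below 0.4 was 42.3% for PAC, 70.2% for RS and 70.2% for ES. The other genes of the same classes had 14.2, 48.2 and 31.1%, in the same order of stages.

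**Figure D5:**
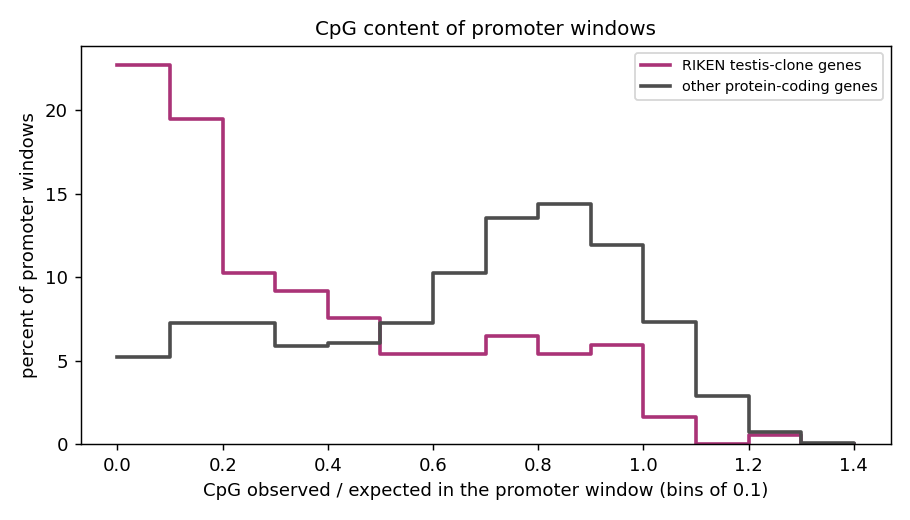
Percent of promoter windows (vertical axis) by ratio of observed to expected CpG in bins of 0.1 (horizontal axis) for 185 windows of the RIKEN testis-clone genes and 14945 windows of other protein-coding genes. The set's windows pile up at the CpG-poor end, with a median of 0.255, and the other windows peak near the CpG-rich end, with a median of 0.706.

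The windows of 2 genes show both kinds of promoter, that of the gene with the largest log2 fold change in ES against PAC and that of the gene with the lowest in RS against PAC. Both are printed from 250 bases before the start, on the strand of the gene, with each CpG in capitals. That of 1700012A03Rik (chr6:32050038-32050337, plus strand), which was highest in ES, holds 3 CpG. That of 4930579G24Rik (chr3:79628829-79629128, plus strand), which was highest in PAC, holds 17. Etfdh overlaps 4930579G24Rik on the opposite strand, and whether this window also serves Etfdh was not tested.
1700012A03Rik: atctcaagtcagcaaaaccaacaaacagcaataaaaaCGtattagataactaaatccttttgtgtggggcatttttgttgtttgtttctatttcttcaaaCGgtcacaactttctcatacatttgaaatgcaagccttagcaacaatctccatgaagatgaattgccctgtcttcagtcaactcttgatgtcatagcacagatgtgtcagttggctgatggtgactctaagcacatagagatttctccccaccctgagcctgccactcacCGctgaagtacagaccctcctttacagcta
4930579G24Rik: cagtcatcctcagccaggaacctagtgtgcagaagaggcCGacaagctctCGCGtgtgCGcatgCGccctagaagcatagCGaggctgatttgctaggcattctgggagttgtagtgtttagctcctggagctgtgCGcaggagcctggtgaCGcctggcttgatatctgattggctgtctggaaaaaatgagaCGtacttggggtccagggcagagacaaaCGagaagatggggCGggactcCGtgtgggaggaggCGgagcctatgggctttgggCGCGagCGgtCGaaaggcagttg

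Short motifs of factors known from spermatogenesis were searched in the same windows on both strands. A match describes the letters only and is not evidence of binding. An RFX half-site of 10 letters, the kind of motif bound by RFX factors, which act in spermatids and ciliated cells, was found in 6 windows of the set, 3.24%, and in 96 of the other windows, 0.642%. The other motifs were less frequent in the set than in the other windows or close to them. TGACGTCA, the palindrome bound by CREB and CREM factors, was in 1.08% of the set's windows and 2.86% of the others. TGACGT, which is contained in TGACGTCA, was in 5.41% and 10.3%, and both hold a CpG. AACNGTT, a core bound by MYB factors such as A-MYB, was in 3.24% and 3.8%, and TATAAA in 9.19% and 8.0%.

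The 6 genes whose window holds the RFX half-site were 4 highest in RS, 1 in ES (1700001K19Rik) and 1 in PAC (1700010I14Rik). In each the motif began between 68 and 21 bases before the start. They are shown as 100 bases on the strand of the gene with the letters of the half-site in capitals, in 1700010I14Rik as their reverse complement, to let the sequence around the shared letters be compared.
1700001K19Rik: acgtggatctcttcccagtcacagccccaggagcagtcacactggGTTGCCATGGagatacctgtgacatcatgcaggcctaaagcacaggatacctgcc
1700010I14Rik: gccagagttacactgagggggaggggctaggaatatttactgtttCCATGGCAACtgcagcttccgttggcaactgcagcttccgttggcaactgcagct
1700034J05Rik: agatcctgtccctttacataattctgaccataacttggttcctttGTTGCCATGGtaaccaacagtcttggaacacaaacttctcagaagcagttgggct
1700109H08Rik: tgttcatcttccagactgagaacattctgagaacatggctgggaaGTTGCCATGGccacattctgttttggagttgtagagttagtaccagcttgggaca
1700125H20Rik: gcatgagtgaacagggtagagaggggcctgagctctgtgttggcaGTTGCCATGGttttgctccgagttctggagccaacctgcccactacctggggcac
4930564C03Rik: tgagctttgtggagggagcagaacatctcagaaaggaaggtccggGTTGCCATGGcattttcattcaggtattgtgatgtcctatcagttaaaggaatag

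The 6 pieces lie at chr12:110682632-110682731 (minus strand), chr17:8988267-8988366 (plus), chr6:146954399-146954498 (minus), chr5:3571603-3571702 (plus), chr11:85170994-85171093 (plus) and chr17:44880872-44880971 (minus), in the order printed. GRCm38.p6 is the build of all of them.

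A second gene on the opposite strand started within 1000 bases upstream in 22 of the 167 matched genes, 13.2%, close to the 14.2% of the other protein-coding genes. Partners did not always move together. 1700030K09Rik lies 10 bases from the start of Calr3, a chaperone gene of the testis, and had a log2 fold change of -0.59 in RS against PAC, where Calr3 had 2.05. Both passed the test. 1700029J07Rik and Ufsp2, a protease gene of the UFM1 pathway with its start 276 bases away, had 1.40 and -2.34. 4933417A18Rik and Fam217a, with starts 99 bases apart, had 1.43 and 1.65 in RS against PAC. The set's own pair of 1700017N19Rik and 4930430F08Rik, 61 bases apart, had 1.17, which passed, and 0.04, which did not.

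Some counts in the set are shared or may be shared with other genes. In 15 of the 167 genes the transcript matched at least 1 other gene at 90% identity or more over at least 50% of its length, and in 11 of these at 95% or more. A gene on the same strand overlapped in 15 of the 167. Opposite-strand overlap was found in 53 genes, which a strand-aware count would keep apart, though the sources used here do not state the strand setting of the count.

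The count minimum left out 3 genes of the 183: 4930432M17Rik with 0 counts over the 9 libraries, 4930426D05Rik with 10 and 4930583I09Rik with 16. Just inside it were 4930522L14Rik and 1700094D03Rik, each with 10 counts or more in 3 libraries, and 1700031F05Rik with 4 such libraries. The 3 libraries were those of PAC for 4930522L14Rik and those of RS for 1700094D03Rik. For 1700031F05Rik they were those of ES and RS replicate 1. 175 of the 180 genes had 10 counts or more in all 9 libraries.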

How the data were processed

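The authors deposited a table of estimated counts per feature for 50493 features; 18.85% of the deposited count values are not whole, so they were rounded for testing. The authors also deposited FPKM values of the same features, for which the sources used here state neither lengths nor totals. Per the submitters' processing notes, the tools were HISAT2 and StringTie and the build GRCm38.p6, without versions or order. Genes were matched to a RefSeq table of that build.

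Features were filtered by edgeR's filterByExpr (minimum count 10, 26030 kept, 24463 removed), scaled by TMM and tested with edgeR's quasi-likelihood test in 1 fit of 9 libraries (two-sided, robust, common biological coefficient of variation 0.24), with Benjamini-Hochberg adjustment over all features and calls at an adjusted p below 0.05. The p-values measure the spread between these libraries. CPM are TMM-scaled. The floor, 3 counts per library, was a mean of 0.146 CPM in ES and 0.104 CPM in PAC and covers counting error only. The fit was also run on counts simulated from its own means and spread, with few features changed. Far more features differ in these data, so that run cannot test the scaling here. Alternatives were DESeq2 (Wald test and size factors), upper-quartile and total-count scaling, other filters, limma on log2 FPKM with pseudocounts of 1 and 0.1, fits of 2 cell types, a replicate block and leaving out each library.

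The genes, lists and markers were chosen with earlier results of these data known. A rule listed 65 genes that could be named. It took the 6 largest and 6 smallest fold changes in each comparison among called genes with at least 5 CPM. It also took the 6 highest by FPKM in each cell type, up to 10 X-linked genes, and genes with a known role or named synonym. Not all of the 65 are described, and no rule set which of them are. Genes named for a promoter motif, a head-to-head partner, the count minimum or a lowest level in RS, and the remaining X-linked genes, were chosen after their values were seen. Roles come from general knowledge. Copies were sought with BLAST 2.17.0 among GENCODE M21 transcripts. Fits ran in R 4.3.3 with edgeR 4.0.16, with limma 3.58.1 and DESeq2 1.42.0 for alternatives. Summaries used pandas 2.3.3 under Python 3.11.15, and matplotlib 3.10.9 drew the plots.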

Additional observations from a re-analysis of the deposited data

How the results depend on the processing

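No called gene of the set took the opposite call under any alternative run. Leaving out each library in turn gave 121 to 129 genes higher and 25 to 28 lower in RS against PAC, 41 to 48 higher and 70 to 85 lower in ES against RS, and 77 to 84 higher and 40 to 44 lower in ES against PAC. It gave 22 to 23 genes highest in PAC, 56 to 68 in RS and 33 to 39 in ES, and 70 to 78 lowest in PAC, 8 to 10 in RS and 22 to 28 in ES. The number of X-linked genes higher in RS than in PAC was 15 under every alternative run. The number lowest in ES moved to 38 with total counts as the scaling and to 38 on the FPKM scale with either pseudocount, against 25. Upper-quartile scaling moved the median of all features in RS against PAC by 0.31 on the log2 scale, and total counts moved that of ES against RS by -0.33 and that of ES against PAC by -0.28. Relative to the median of all features, the set's median was 1.29 in RS against PAC under upper-quartile scaling. With total counts it was -0.41 in ES against RS and 0.44 in ES against PAC. A change of scaling moves all features by about the same amount, so these differences could hardly move and are no check of the result. On the FPKM scale with a pseudocount of 1 the difference was -0.51 in ES against RS and 0.26 in ES against PAC. The main fit gave -0.4 and 0.43. The log2 fold change of 4930402H24Rik in ES against RS, 0.27 and not called, was -0.38 on the FPKM scale with a pseudocount of 1 (adjusted p = 0.048 by limma), while DESeq2 size factors gave a call at 0.41. TATAAA was in 5.41% of the set's windows on the gene strand alone.

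The correlation of deviations between same-numbered libraries lay between -0.04 and 0.273. Between ES and PAC it was 0.185 for replicates 1, -0.024 for replicates 2 and 0.273 for replicates 3. Between replicate 1 of one and replicate 3 of the other it was -0.254 and -0.216. With RS in the pair, all values lay between -0.118 and 0.106. Whether replicate numbers pair the ES and PAC libraries was not tested. With the replicate number as a block, 129 genes were higher and 27 lower in RS against PAC, 47 and 84 in ES against RS, and 85 and 44 in ES against PAC. With 3 counts as the floor, levels under 0.104 CPM in PAC and 0.146 CPM in ES could not be told from 0 at this depth.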
